A study of Homo sapiens with 9 samples.

Results

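The 243 regions described here were transcribed in K562 cells and overlapped no gene of Gencode v44 on their own strand. They were chosen from the 426 regions that the study published as unannotated, by the overlap alone and without regard to their levels, and make up 57.0% of that list. The other 183 regions overlapped at least 1 v44 gene on their strand. K562 is an established chronic myeloid leukemia line that carries the BCR-ABL1 fusion and has erythroid features, and imatinib is an inhibitor of the ABL1 kinase. The 4 libraries were made by TIF-Seq2, which sequences both ends of single capped and polyadenylated RNA molecules as 1 read pair, from poly(A) RNA of cells exposed to 1 µM imatinib for 24 h (2 libraries) and of control cells exposed to DMSO (2 libraries). The study calls the replicates of each condition biological, and both conditions are of the same single cell line.

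Gene annotations are built from RNAs seen in many tissues, and an RNA that is rare, restricted to few cells or short-lived can remain outside them. Many active promoters start transcription on both strands, so that an unannotated RNA may begin close to a known gene and run away from it (divergent) or into it on the other strand (antisense). Other unannotated RNAs begin far from any gene, and some begin in sequence that recurs at many places of the genome. The cap and the poly(A) tail that TIF-Seq2 requires mark an RNA that was started and ended as an RNA polymerase II transcript, and the end of such RNAs usually follows a poly(A) hexamer, AATAAA or ATTAAA, by a short distance.

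The deposited tables held 3695520 and 5135829 read pairs for the DMSO libraries and 4263670 and 2263121 for the imatinib libraries. Read pairs with at least 7 A in the 10 genomic bases after the 3′ end, which may come from priming inside an RNA, were left out and made up from 7.82% to 9.80% of the pairs, the highest share being that of imatinib replicate 1. Each of the 9 genes listed as markers of K562 cells had 28 or more pairs in every library, whereas CD3E, MS4A1, CD14 and KRT5 had none. EPCAM, which was listed as a gene of other tissues, was however present in every library, with at least 204 pairs. Read pairs outside every gene and every published region made up 0.183% and 0.191% of the pairs used in the DMSO libraries and 0.382% and 0.254% in the imatinib libraries. They therefore moved in the same direction as the regions described below, and their part in those results was not tested.

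The starts of 3 of the 5 regions with the most read pairs are shown first, since they were among those with the most molecules. Each window holds 60 bases before the most used start position and 20 from it on, in the 5′ to 3′ direction of the RNA, and capitals mark the last base before the start and the start base. The positions in hg38 are chr4:49161212-49161291 (plus strand) for TIF_NOVEL_259, chr16:3007175-3007254 (minus strand) for chr16_G01, chr18:30175960-30176039 (minus strand) for TIF_NOVEL_157.
TIF_NOVEL_259: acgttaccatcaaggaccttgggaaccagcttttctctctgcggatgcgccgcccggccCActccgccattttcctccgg
chr16_G01: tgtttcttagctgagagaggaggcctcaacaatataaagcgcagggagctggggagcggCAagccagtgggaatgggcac
TIF_NOVEL_157: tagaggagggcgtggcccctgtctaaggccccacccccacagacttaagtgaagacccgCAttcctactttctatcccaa
The start base followed a pyrimidine and was a purine in all 3. Over all 243 regions, 189 (77.8%) began with a pyrimidine followed by a purine, against 70.8% of 11321 v44 genes with at least 20 pairs. The window of chr16_G01 held the motif TATAAA, which was searched on the strand of the RNA, 15 to 40 bases before the start. It was found in 15 of the 243 regions (6.17%) and in 1.60% of the gene starts.

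The ends of these 3 regions and of TIF_NOVEL_198 are shown for their poly(A) hexamers. Each window holds the last 50 bases up to the most used 3′ end and the 10 bases after it, and capitals mark the last AATAAA or ATTAAA before the end. The positions in hg38 are chr2:103449762-103449821 (minus strand) for TIF_NOVEL_198, chr4:49207809-49207868 for TIF_NOVEL_259, chr16:3006554-3006613 for chr16_G01, chr18:30157327-30157386 for TIF_NOVEL_157, the last 3 on the strands given above.
TIF_NOVEL_198: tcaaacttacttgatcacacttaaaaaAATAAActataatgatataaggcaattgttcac
TIF_NOVEL_259: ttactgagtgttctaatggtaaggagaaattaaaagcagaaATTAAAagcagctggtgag
chr16_G01: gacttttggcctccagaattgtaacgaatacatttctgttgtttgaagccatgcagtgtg
TIF_NOVEL_157: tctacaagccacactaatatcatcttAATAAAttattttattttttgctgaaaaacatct
The end of TIF_NOVEL_198 lay 23 bases after the first base of its hexamer and that of TIF_NOVEL_157 lay 24 bases after it. For TIF_NOVEL_259 the distance from the marked hexamer was only 9 bases, and an earlier ATTAAA stood in the same window. No hexamer stood before the end of chr16_G01. One of both hexamers, searched on the strand of the RNA, stood within 50 bases before the most used end of 201 of the 243 regions (82.7%). The share was 83.6% at the ends of the v44 genes and 78.1% at those of the 183 other published regions. AATAAA alone was found before 161 ends, and the median number of A in the 10 bases after the end was 3.

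The 3 regions with the largest increase after imatinib and the 3 with the largest decrease are shown in the same way at their starts, since the comparison of the conditions turned on such regions. The positions are chr12:56785263-56785342 (minus strand) for TIF_NOVEL_90, chr1:247288626-247288705 (plus strand) for TIF_NOVEL_48, chr1:108533925-108534004 (minus strand) for chr1_G04, chr3:14252887-14252966 (minus strand) for chr3_G01, chr12:56021387-56021466 (minus strand) for TIF_NOVEL_89, chr1:65481127-65481206 (minus strand) for TIF_NOVEL_18.
TIF_NOVEL_90: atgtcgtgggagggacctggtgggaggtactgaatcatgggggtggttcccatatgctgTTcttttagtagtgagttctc
TIF_NOVEL_48: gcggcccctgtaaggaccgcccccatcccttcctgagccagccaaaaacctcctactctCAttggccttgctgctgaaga
chr1_G04: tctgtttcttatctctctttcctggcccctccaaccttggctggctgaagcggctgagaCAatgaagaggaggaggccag
chr3_G01: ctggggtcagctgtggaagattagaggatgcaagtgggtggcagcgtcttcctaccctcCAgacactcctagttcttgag
TIF_NOVEL_89: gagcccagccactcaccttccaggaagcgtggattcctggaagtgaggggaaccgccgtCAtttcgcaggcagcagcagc
TIF_NOVEL_18: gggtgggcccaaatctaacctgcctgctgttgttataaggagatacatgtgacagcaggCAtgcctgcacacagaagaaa
The initiating dinucleotide was CA in 5 of these 6, and TIF_NOVEL_90 began on a T after a T. The ends of 5 of them, in windows as above, lay at chr1:247290751-247290810 for TIF_NOVEL_48, chr1:108530593-108530652 for chr1_G04, chr3:14251048-14251107 for chr3_G01, chr12:56019523-56019582 for TIF_NOVEL_89, chr1:65476646-65476705 for TIF_NOVEL_18.
TIF_NOVEL_48: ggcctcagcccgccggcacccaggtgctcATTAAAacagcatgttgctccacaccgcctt
chr1_G04: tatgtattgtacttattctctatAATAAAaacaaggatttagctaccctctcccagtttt
chr3_G01: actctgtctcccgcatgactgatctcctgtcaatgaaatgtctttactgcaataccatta
TIF_NOVEL_89: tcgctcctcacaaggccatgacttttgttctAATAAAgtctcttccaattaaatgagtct
TIF_NOVEL_18: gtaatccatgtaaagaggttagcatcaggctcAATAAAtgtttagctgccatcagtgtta
A hexamer preceded the end in 4 of these 5, and none was found before the end of chr3_G01.

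Some starts resembled each other. The 300 bases around the start, 250 before and 50 after it, were aligned between all 426 regions, and starts were grouped when at least 150 bases matched at 80% identity or more. This gave 17 groups, which held 60 of the 243 regions. The largest group had 31 regions on the list, of which 22 were without a v44 gene, and the next had 25, of which 16 were without one. They are called start group 1 and start group 2 here. In each, the starts were compared with that of the region most like the others, TIF_NOVEL_179 in group 1 and TIF_NOVEL_75 in group 2. The starts themselves fell on like bases. In group 1 the starts of 21 of the 30 other regions, and in group 2 those of 23 of the 24 others, aligned within 10 bp of the start compared with. The sequence of TIF_NOVEL_179 was alike to 18 of the 243 regions, itself included (7.41%), and to 42 of the 11321 gene starts (0.371%). That of TIF_NOVEL_75 was alike to 16 of the 243 (6.58%), itself included, and to 20 gene starts (0.177%). These shares are a description, since the sequence compared with was taken from the regions themselves. The members of group 1 lay on 13 chromosomes and those of group 2 on 10, none began within 1 kb of a gene start, and 13 and 7 of them were antisense to a gene. No repeat annotation was used here, so only the likeness is given.

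The regions were also sorted by their position. Of the 243, 139 (57.2%) overlapped a v44 gene on the other strand, and for 101 of these it was a protein-coding gene. The other 104 were intergenic. Among the antisense regions the most used start lay in an intron of the opposite gene in 78, in an exon in 31 and outside it in 30, and the most used end lay in an intron in 75, in an exon in 12 and outside in 52. Thus both ends lay inside the opposite gene in 76 of the 139.

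The most used start was a median of 7164 bp from the nearest v44 gene start on either strand, with a range from 17 bp to 340300 bp. It lay within 1 kb in 67 regions (27.6%), from 1 to 10 kb in 66, from 10 to 100 kb in 95 and over 100 kb away in 15. All 67 of the first kind lay on the strand opposite to that gene. The choice of regions without a gene on their own strand made this nearly certain beforehand. Of them, 40 were divergent, with a median of 149 bp between the starts, and 27 ran into the gene, their heads overlapping. The gene was protein-coding in 51 of the 67 and a long non-coding RNA in 9. When the starts of all annotated transcripts were used in place of gene starts, 95 regions lay within 1 kb. The 67 near starts had a median GC content of 65.3% and a ratio of observed to expected CpG of 0.828, whereas the 176 farther starts had 52.0% and 0.397, and the gene starts 64.7% and 0.842. In these measures the near starts were close to gene starts and the farther ones were not. The near starts were however set apart by this distance, which had a median of 252 bp. The bases measured around them can therefore include or adjoin the gene start itself. The likeness is thus partly built in, and it does not show a property of the regions' own starts.

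**Figure D1:**
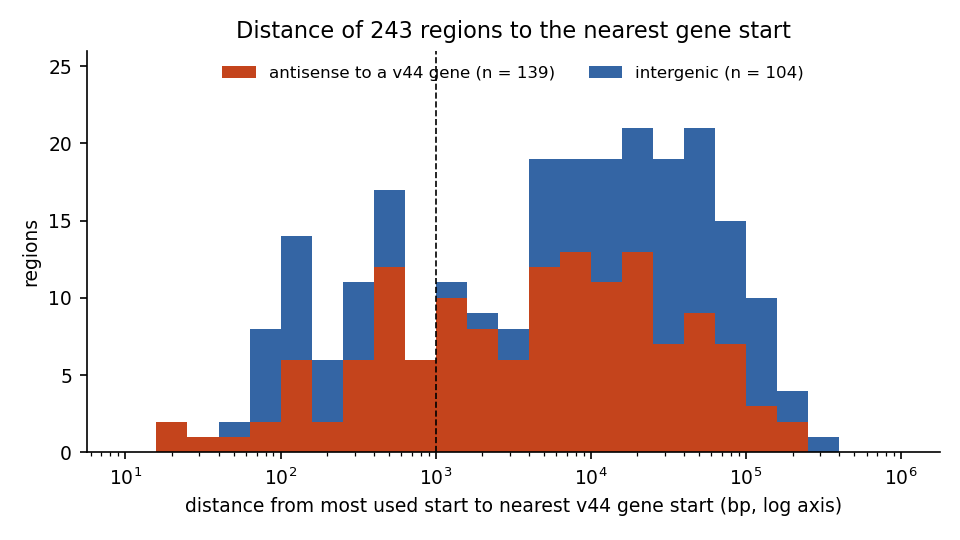
Distance on a log axis, in bp, from the most used start of each of the 243 regions to the nearest v44 gene start on either strand, stacked for the 139 antisense and the 104 intergenic regions, with the 1 kb limit dashed. The limit leaves 67 regions to its left and 176 to its right, which are spread up to 340300 bp. It cuts through the spread of distances, with 51 regions within 500 bp and 83 within 2 kb.

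The regions were lowly transcribed. They held 27414 of the 60295 read pairs of all 426 regions, namely 5401 and 7508 in the DMSO libraries and 10206 and 4299 in the imatinib libraries, or 0.161%, 0.162%, 0.271% and 0.210% of the pairs used. The median was 61 pairs per region over the 4 libraries, with quartiles of 29 and 134 and a range from 6 to 1070, and it was 69 for the other published regions. A pair was seen in all 4 libraries for 211 of the 243. Only 11 regions had over 500 pairs.

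TIF_NOVEL_198, an intergenic region on the minus strand (chr2:103449772-103464957), had the most pairs, with 297 and 379 in the DMSO libraries and 281 and 113 in the imatinib libraries. At 97.9% of its pairs from 1 start and 93.1% at 1 end, its molecules were nearly uniform in their ends, and the sequence between them was not read. TIF_NOVEL_33 (chr1:168207140-168220655), a member of start group 1, had 162 and 376 pairs under DMSO and 216 and 85 under imatinib, so that the conditions overlapped. TIF_NOVEL_259 (chr4:49161272-49207858), antisense to ENSG00000249828, had 188 and 205 pairs against 311 and 134. The short chr16_G01 (chr16:3006371-3007253) had 86 and 99 pairs against 422 and 174, and both imatinib libraries were higher also in CPM, the pairs counted per 1000000 pairs after TMM scaling. TIF_NOVEL_157 (chr18:30156265-30176015) was 114182 bp from the nearest gene start and had 158 and 196 pairs against 273 and 110. TIF_NOVEL_264 (chr4:74278051-74365364), antisense to MTHFD2L, a mitochondrial enzyme of folate metabolism, had 211 and 253 pairs against 115 and 126.

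The remaining 4 of the 10 were TIF_NOVEL_333, TIF_NOVEL_218, chr10_G01 and TIF_NOVEL_387. TIF_NOVEL_333 (chr6:164270893-164338120) had 244 and 247 pairs under DMSO and 123 and 34 under imatinib, and was lower in both imatinib libraries in CPM. TIF_NOVEL_218 (chr2:238421221-238422475), whose nearest gene start was that of ASB1 at 4419 bp, had 161 and 183 pairs against 213 and 58. The region chr10_G01 (chr10:5410108-5480649), antisense to NET1, had 95 and 109 pairs against 247 and 145. TIF_NOVEL_387 (chr9:137128691-137129795), whose nearest gene start was that of GRIN1, a subunit of NMDA receptors, had 166 and 160 pairs against 147 and 113. Of the 10, chr16_G01 alone was called changed by the rule given below.

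Starts and ends were focused. With ends joined at most 10 bp apart, a median of 82.5% of a region's pairs used the most used start site and 90.3% the most used end site, and the medians were 84.0% and 88.9% for the other published regions. Of the 243 regions, 137 had a single start site with at least 10% of the pairs and 151 a single such end site, and the most was 6 sites for either. The distance between the joined ends had a median of 2678 bp, from 305 to 241138 bp. It was under 1 kb in 44 regions and over 100 kb in 11. Regions that began within 1 kb of a gene start spanned a median of 1427 bp and the others 4099 bp.

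Most pairs that ended in a region had also started in it. This is partly built in, since the study drew the regions from starts and ends linked in these libraries. Of the 28357 pairs that ended in a region, 943 (3.33%) had started outside it. In 115 regions none had, whereas in 13 regions over 20% had. In the other direction, 5274 of the 32688 pairs that started in a region (16.1%) ended beyond it. Several of the frequent regions used more than 1 end. TIF_NOVEL_157 ended at 30157337 in 95, 146, 168 and 58 pairs and at 30156265 in 62, 50, 104 and 51 pairs in DMSO replicates 1 and 2 and imatinib replicates 1 and 2. The 2 sites thus kept their order in each library. The region chr16_G01 ended in 66, 77, 348 and 132 pairs at 3006564 and in 19, 22, 74 and 42 pairs at 3006371, in the same order of libraries. TIF_NOVEL_333 had 141, 108, 48 and 12 pairs at 164317011 and 17, 28, 46 and 7 at 164336824, which lay closer to its start, so that the share of the nearer site was higher in the imatinib libraries. Over the 159 regions with at least 10 pairs in each condition, the most used start site was the same under DMSO and imatinib in 150 and the most used end site in 148. The share of the most used end site differed by a median of 0 percentage points between conditions.

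The libraries were then compared between imatinib and DMSO. Of the 243 regions, 215 had at least 20 pairs and were tested together with 11321 v44 genes and the other published regions by the quasi-likelihood test of edgeR, with Benjamini-Hochberg adjustment over all 11705 features. Calls required an adjusted p under 0.05 together with a log2 fold change of more than 1.5 up or down. Of the 215, 61 rose (28.4%) and 9 fell (4.19%), where 6.73% of all features tested were called higher and 3.3% lower. Their median log2 fold change was 0.91, against 0.03 over all features. Of the other published regions, 45 of 169 were higher (26.6%) and 14 lower, with a median of 0.84. Long non-coding RNA genes of v44 were called higher in 181 of 1212 (14.9%) with a median of 0.61, and protein-coding genes in 494 of 10020 (4.93%) with a median of −0.03. Among genes with under 200 pairs, nearer to the regions in depth, 150 of 929 long non-coding RNA genes (16.1%) were higher, with a median of 0.73. Of such protein-coding genes 307 of 4331 (7.09%) were, with a median of 0.08. No test was made of the difference between these sets.

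A limit of this count is that the published regions were found in these same libraries, so that a region transcribed in 1 condition could enter the list through that condition. The 28 regions under 20 pairs were not tested, and in 9 of them both imatinib libraries lay above both DMSO libraries. Without imatinib replicate 1, which had the highest share of pairs outside genes, 33 of 166 tested regions were called higher and 8 lower, where 4.83% and 3.96% of all features were, and the median log2 fold change was 0.40. The share of lower regions was then near that of all features. Without imatinib replicate 2 the counts were 76 and 15 of 195, where 9.82% and 5.59% of all features were called. By DESeq2, 44 regions were higher, where 4.68% of all features were, and 7 lower, where 2.67% were. Over all 243 regions, both imatinib libraries lay above both DMSO libraries in 128 (52.7%) and below in 34 (13.99%), where 25.7% and 21.6% of all features with a read pair did. Those 18318 features needed only 1 pair, whereas each region had at least 6, so these shares come from sets of unlike depth.

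**Figure D2:**
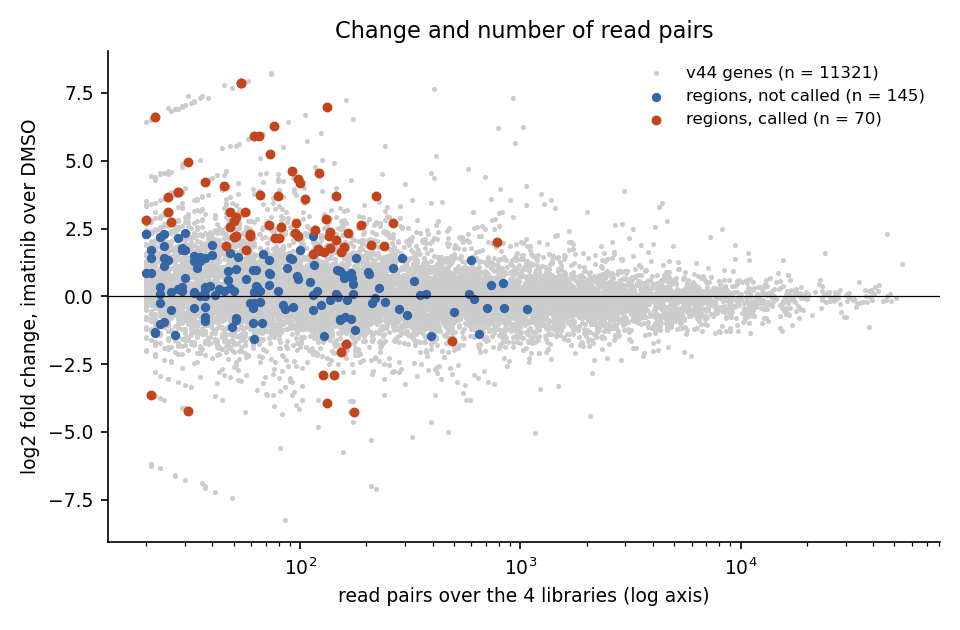
Log2 fold change of imatinib over DMSO (edgeR) against the number of read pairs over the 4 libraries on a log axis, for 11321 v44 genes and the 215 tested regions. The 61 regions called higher and the 9 called lower lie mostly at few pairs, where the genes also spread most.

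The summed level of the 243 regions was 1756 and 1626 CPM in the DMSO libraries and 2631 and 2176 CPM in the imatinib libraries. The conditions did not overlap, and the ratio of the means was 1.42. With 2 libraries a condition an exact permutation test, two-sided, cannot go below p = 0.333, which it gave here. Intergenic regions summed to 880 and 812 CPM under DMSO and 1166 and 892 CPM under imatinib, a ratio of 1.22 (exact permutation p = 0.333). Antisense regions summed to 877 and 814 CPM against 1465 and 1284 CPM, a ratio of 1.63 (exact permutation p = 0.333). Regions that began within 1 kb of a gene start went from 281 and 249.1 CPM to 655 and 425 CPM, a ratio of 2.04, and the farther ones from 1476 and 1377 CPM to 1976 and 1751 CPM, a ratio of 1.31 (exact permutation p = 0.333 for both). The increase was thus uneven by class in size, and no class of these 4 fell. In the sum of intergenic regions far from a gene start the conditions overlapped, with 745 and 680 CPM under DMSO and 827 and 705 CPM under imatinib (exact permutation p = 0.667).

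Counted region by region, 19 of the 57 tested near starts were called higher (33.3%) and 1 lower, with a median log2 fold change of 1.41, and 42 of the 158 farther ones (26.6%) were higher and 8 lower, with a median of 0.68. By overlap, 35 of 127 antisense regions (27.6%) were higher and 5 lower, and 26 of 88 intergenic regions (29.5%) were higher and 4 lower. The differences between classes were not tested, since regions are not replicates of a condition.

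**Figure D3:**
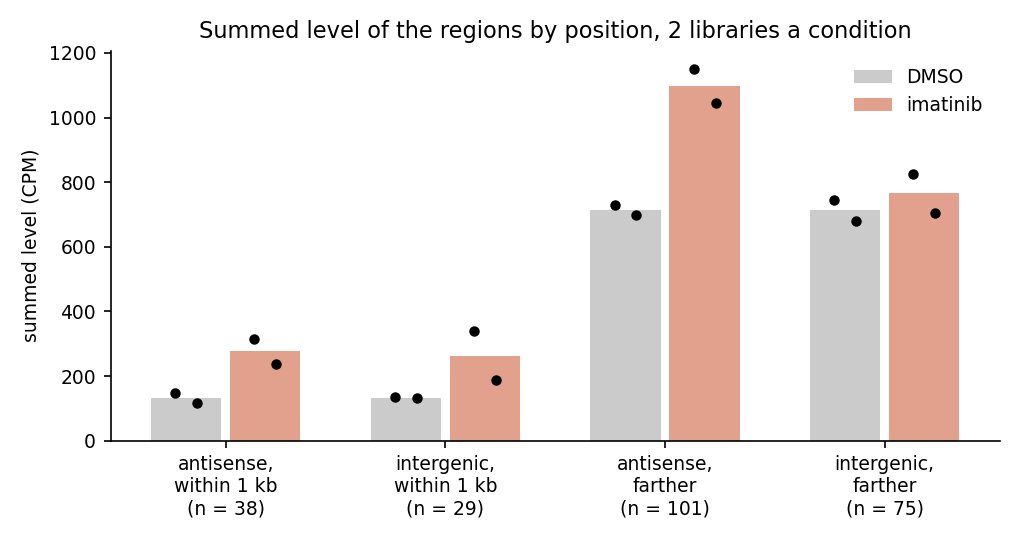
Summed level in CPM of the regions antisense to a gene or intergenic, with their most used start within 1 kb of a gene start or farther, under DMSO and imatinib. Bars are the mean of 2 libraries and points the libraries (replicate 1 left, replicate 2 right). Both imatinib points lie above both DMSO points except in the intergenic regions far from a gene start.

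Several regions were close to absent from the DMSO libraries. TIF_NOVEL_90 (chr12:56758905-56785282), antisense to HSD17B6, an enzyme of steroid metabolism, had no pair under DMSO and 43 and 11 pairs under imatinib. TIF_NOVEL_48 (chr1:247288686-247290800), intergenic, had the same counts. Against a floor of 3 pairs over the DMSO libraries, each was at least 23.6-fold higher after imatinib. TIF_NOVEL_311 (chr6:36113082-36118745), 9064 bp from the start of MAPK13, a p38 kinase, had none under DMSO and 18 and 4 under imatinib, at least 9.63-fold higher. For these 3 regions the fold is a lower bound. All their pairs came from imatinib, so that they passed the limit of 20 pairs only through the condition in which they were high, and no p is given for them.

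The largest rise with many pairs was that of chr1_G04 (chr1:108530603-108533944), an intergenic region, with 0 and 1 pairs under DMSO and 102 and 30 under imatinib. Its ratio of 173 had a 95% interval from 30.6 to 6901, which covers counting error only. Its molecules ended at 2 sites, with 52 and 12 pairs at 108530603 and 45 and 18 at 108531194 in the imatinib libraries. TIF_NOVEL_61 (chr10:60073661-60077022), antisense to ANK3 (ankyrin G), had 1 and 0 pairs against 46 and 29, a ratio of 98.5 (17.2 to 3943). TIF_NOVEL_388 (chrX:15166166-15182697) had 0 and 1 against 53 and 11, a ratio of 84.1 (14.6 to 3372). TIF_NOVEL_200 (chr2:111450707-111452194), antisense to MIR4435-2HG, a long non-coding RNA, had 0 and 1 against 45 and 16, a ratio of 80.1 (13.9 to 3217). In each of these the lower imatinib library was still at least 10 pairs above the higher DMSO library.

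TIF_NOVEL_83 (chr12:719247-720626), whose nearest gene start was that of the kinase gene WNK1 at 31953 bp, had 0 and 2 pairs under DMSO and 59 and 12 under imatinib, a ratio of 46.6 (12.4 to 393). TIF_NOVEL_210 (chr2:170744149-170746407), antisense to ERICH2-DT, had 1 and 0 pairs against 19 and 11, a ratio of 39.4 (6.55 to 1608). TIF_NOVEL_105 (chr14:32326802-32336797), antisense to AKAP6, an anchor of protein kinase A, had 3 and 1 pairs against 72 and 16, with a log2 fold change of 4.62 ± 0.69 (SE). This value was 5.77 without DMSO replicate 1, 3.76 without DMSO replicate 2 and 3.87 without imatinib replicate 1. The 10 regions with the largest rise thus had at most 4 DMSO pairs each, so that all 10 reached 20 pairs through the imatinib libraries, and 16 of the 61 regions called higher had 3 or fewer. TIF_NOVEL_90, TIF_NOVEL_388 and TIF_NOVEL_83 belong to start group 1.

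**Figure D4:**
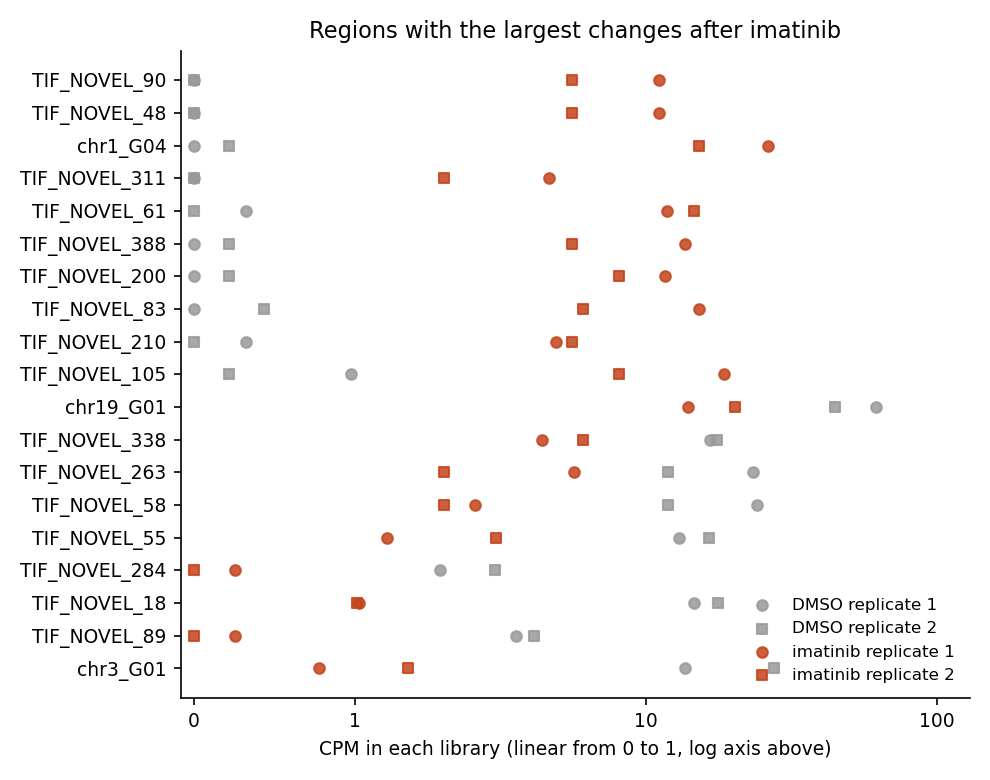
Level in CPM in each of the 4 libraries (linear from 0 to 1 CPM, log above) for the 10 regions with the largest rise and the 9 with the largest fall among those called. In each region both imatinib libraries lie on 1 side of both DMSO libraries.

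The 9 regions that fell were fewer but included well-covered ones. The region chr3_G01 (chr3:14245500-14252906), intergenic, had 42 and 127 pairs under DMSO and 3 and 3 under imatinib, a log2 fold change of −4.27 ± 0.59 (SE, edgeR adjusted p = 0.00112), and −3.64 without DMSO replicate 2. TIF_NOVEL_18 (chr1:65476656-65481146), antisense to LEPR, the leptin receptor gene, fell from 45 and 82 pairs to 4 and 2, by 3.94 ± 0.51 on the log2 scale (edgeR adjusted p = 7.95e-04). TIF_NOVEL_55 (chr10:28814285-28826451), antisense to LINC01517, had 40 and 76 pairs against 5 and 6. TIF_NOVEL_58 (chr10:50556944-50567952), antisense to SGMS1, a sphingomyelin synthase gene, had 74 and 55 against 10 and 4. Their log2 fold changes were −2.90 and −2.89 (edgeR adjusted p = 0.00336 and 0.00383), and that of TIF_NOVEL_55 was −2.25 without imatinib replicate 1. The regions chr3_G01, TIF_NOVEL_18, TIF_NOVEL_55 and TIF_NOVEL_58 passed the limit of pairs for testing only through the DMSO libraries, in which they were high. Their adjusted p is to be read with this limit.

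TIF_NOVEL_338 (chr7:8762994-8763899), intergenic, had 51 and 81 pairs under DMSO and 17 and 12 under imatinib, a log2 fold change of −1.74 (edgeR adjusted p = 0.0129). The region chr19_G01 (chr19:51548770-51551480) had 190 and 206 pairs against 54 and 40, a log2 fold change of −1.66 (edgeR adjusted p = 0.0097). TIF_NOVEL_89 (chr12:56019533-56021406), antisense to IKZF4, a zinc finger transcription factor gene, had 11 and 19 pairs against 1 and 0, and TIF_NOVEL_284 (chr5:126680496-126680836) had 6 and 14 against 1 and 0. With such counts the ratios of 0.0442 and 0.0657 had intervals from 0.00108 to 0.263 and from 0.00158 to 0.411. Both reached 20 pairs through the DMSO libraries. DESeq2 did not call them, at log2 fold changes of −4.49 and −3.88 (adjusted p = 0.0681 and 0.188). Without imatinib replicate 1, which left no imatinib pair, the call of TIF_NOVEL_284 was lost (edgeR adjusted p = 0.0523). The call of chr19_G01 was lost without DMSO replicate 1, at a log2 fold change of −1.40, and without imatinib replicate 1, at −1.36. That of TIF_NOVEL_338 was lost without DMSO replicate 2 (edgeR adjusted p = 0.0772) and without imatinib replicate 1, at −1.46.

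Genes that share a start area with a region were set beside it, to see whether both strands moved alike. Within 1 kb of the regions' most used starts there were 76 v44 gene starts, 53 of them of protein-coding genes, and 51 of the genes had enough pairs to be tested. Of these 51 genes 1 was called higher (1.96%, against 6.73% of all features) and 2 lower, and their median log2 fold change was −0.20. The regions that were called higher had 14 tested genes in this distance, of which 1 was called higher and 1 lower.

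The gene called higher was CHST2, which encodes a carbohydrate sulfotransferase, with 34 and 59 pairs under DMSO and 99 and 96 under imatinib (log2 fold change 1.61). TIF_NOVEL_242 began 109 bp from it on the other strand and rose by 2.70 on the log2 scale. ATAD3B, which encodes a mitochondrial membrane ATPase, was called lower, with 94 and 130 pairs against 15 and 13 (log2 fold change −2.55, edgeR adjusted p = 0.00213). TIF_NOVEL_2, which began 98 bp away on the other strand, went the other way, from 7 and 19 pairs to 91 and 20 (log2 fold change 2.38, edgeR adjusted p = 0.00934). SRM, the spermidine synthase gene, was also called lower, with 1146 and 1426 pairs against 394 and 225, and the log2 fold change of TIF_NOVEL_4 at 268 bp was −0.41 (edgeR adjusted p = 0.700). TIF_NOVEL_2, TIF_NOVEL_4 and TIF_NOVEL_242 were chosen after their values were seen, because the gene beside them was called.

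The regions with the most pairs beside a protein-coding gene on the other strand were 5. The region chr9_G01 (chr9:37904211-37905637) had its most used start 116 bp from that of SLC25A51, the gene of a mitochondrial NAD transporter. It rose from 25 and 18 pairs to 149 and 73, by 2.68 ± 0.41 on the log2 scale (SE, edgeR adjusted p = 0.00179). Its most used start site under DMSO was at 37904237, with 21 DMSO and 70 imatinib pairs. Under imatinib it was at 37904453, with 18 and 134. SLC25A51 had 236 and 344 pairs under DMSO and 484 and 254 under imatinib, a log2 fold change of 0.74 (edgeR adjusted p = 0.0986). TIF_NOVEL_102 (chr13:95300815-95311008) began 660 bp inside ABCC4, a gene of an export transporter, and rose from 16 and 15 pairs to 116 and 42 (log2 fold change 2.64, edgeR adjusted p = 0.00204), while ABCC4 had a log2 fold change of 0.43 (edgeR adjusted p = 0.357).

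TIF_NOVEL_171 (chr19:43755110-43756271), 148 bp from the start of SMG9, a gene of nonsense-mediated decay, had 47 and 49 pairs under DMSO and 134 and 33 under imatinib (log2 fold change 1.03, edgeR adjusted p = 0.117). The log2 fold change of SMG9 was −0.20 (edgeR adjusted p = 0.690). TIF_NOVEL_3 (chr1:1511285-1512067), 95 bp from the start of ATAD3A, had 35 and 34 pairs against 66 and 24 (log2 fold change 0.68, edgeR adjusted p = 0.271), and ATAD3A had −0.90 (edgeR adjusted p = 0.107). Since ATAD3A and ATAD3B are near-identical copies, and the starts of TIF_NOVEL_2 and TIF_NOVEL_3 were alike too, their pairs may be split uncertainly. TIF_NOVEL_263 (chr4:74038594-74042620) had its most used start 110 bp from the start of CXCL3, a chemokine gene, from which it ran away. This start held 54 DMSO and 9 imatinib pairs. Another start, at 74038594 inside CXCL3 on the other strand, held 28 and 11 and was thus the more used one under imatinib. The region fell from 72 and 55 pairs to 22 and 4 (log2 fold change −2.04, edgeR adjusted p = 0.0213), and CXCL3 itself had only 4, 5, 3 and 0 pairs, too few to be tested. Without DMSO replicate 1 the call of TIF_NOVEL_263 was lost (log2 fold change −1.51, edgeR adjusted p = 0.127), and without imatinib replicate 1 the log2 fold change was −3.05.

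Pairs of regions also faced away from each other. In 5 places, 2 published regions began on opposite strands within 1 kb and ran apart, and 7 of the 243 regions took part in such pairs. TIF_NOVEL_113 and TIF_NOVEL_114 began 79 bp apart on chromosome 14, with 17, 21, 15 and 9 pairs for the first and 1, 4, 12 and 6 for the second in DMSO replicates 1 and 2 and imatinib replicates 1 and 2. TIF_NOVEL_243 and TIF_NOVEL_244 began 774 bp apart on chromosome 3, with 6, 18, 7 and 10 pairs and 38, 49, 47 and 39 pairs. The first of them belongs to start group 2.

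Long-read models deposited with the study, from amplicons of targets that the study had picked, lay inside 10 of the 243 regions. The targets were chosen from these libraries, so the models say nothing on how common such structures are among the regions. There were 30 models, 5 of them unspliced and the others with up to 4 exons, and for all 30 some read pair joined both ends within 100 bp. The region chr10_G01 had 6 models of 2 to 4 exons, and 363 read pairs joined the ends of the 25268 bp ones. The region chr9_G01 had 7 models and chr16_G01 had 4, 1 of them unspliced. The model of chr3_G01 had 2 exons with 388 exonic bases over 1849 bp, and 164 pairs joined its ends. Models of NCOR1P2_LG overlapped TIF_NOVEL_136, which had 3, 3, 6 and 2 pairs in the 4 libraries, but reached beyond it and were not taken as models of it.

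Of the 10 regions, 7 were called higher and 2 lower, and these regions were picked by the study with their changes known. The region chr1_G07 (chr1:176880096-176884744), antisense to the gene of astrotactin 1 (ASTN1), had 5 and 17 pairs under DMSO and 108 and 92 under imatinib (log2 fold change 3.71 ± 0.47, SE). The region chrX_G01 (chrX:10177162-10179058), antisense to CLCN4, a chloride and proton exchanger gene, had 2 and 4 against 88 and 28 (log2 fold change 4.53 ± 0.53). The region chr14_G01 (chr14:103204889-103207178) had 2 and 4 against 79 and 15, and chr11_G01 (chr11:5129606-5130635), antisense to the olfactory receptor gene OR52A5, had 3 and 4 against 48 and 24 (log2 fold changes 4.17 ± 0.64 and 3.70 ± 0.51). The value of chr1_G07 was 4.47 without DMSO replicate 2, and that of chr14_G01 was 3.25 without imatinib replicate 1. The edgeR adjusted p was at most 0.00188 for these 4. Of them, chrX_G01, chr14_G01 and chr11_G01 passed the limit of pairs for testing only through the imatinib libraries, in which they were high. Their adjusted p is to be read with this limit. The tenth, chr10_G01, had a log2 fold change of 1.33 ± 0.32 (edgeR adjusted p = 0.0161) and stayed under the limit of 1.5.

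The start groups were then set beside the other regions. Of the 20 tested members of group 1, 5 were called higher (25.0%) and 0 lower, with log2 fold changes from −1.58 to 7.88 and a median of 0.46. Without imatinib replicate 1 the median was −0.11, with 3 of 16 called higher, so that its direction rested on that library. The sums of group 1 overlapped, with 139 and 185 CPM under DMSO and 222 and 169 CPM under imatinib (exact permutation p = 0.667). Of the 14 tested members of group 2, edgeR called 0 in either direction, 0 had an unadjusted p under 0.05, DESeq2 also called 0, and the log2 fold changes ran from −1.12 to 0.33 with a median of −0.50. The 124 tested regions outside both groups that began far from a gene start had a median of 0.92, with 37 higher and 8 lower. Group 2 summed to 102 and 97.5 CPM under DMSO and 52.6 and 96.7 CPM under imatinib, so that its level was low in imatinib replicate 1 only. Without that library the median log2 fold change of group 2 was 0.13, and without imatinib replicate 2 it was −0.85, with 2 of 12 called lower. TIF_NOVEL_75 had 38 and 74 pairs under DMSO and 28 and 20 under imatinib (log2 fold change −0.75, edgeR adjusted p = 0.217), and TIF_NOVEL_236 had 65 and 65 against 44 and 37 (−0.25, edgeR adjusted p = 0.719). The 9 regions of group 2 that do overlap a v44 gene had 2 called lower (22.2%, against 3.3% of all features) and 0 higher. Their median log2 fold change was −1.58. They summed to 153 and 157 CPM under DMSO and 67.8 and 79.0 CPM under imatinib (exact permutation p = 0.333). Unlike those without a v44 gene, they were thus lower in both imatinib libraries. Whether the groups differ from the other regions was not tested.

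**Figure D5:**
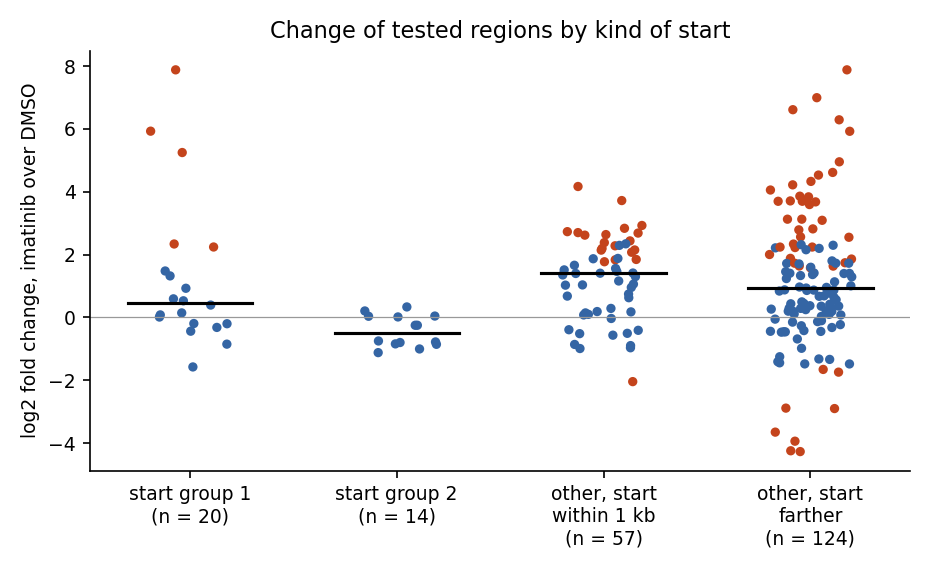
Log2 fold change of imatinib over DMSO (edgeR) of the 215 tested regions, split into start group 1, start group 2 and the others with a start within 1 kb of a gene start or farther. Each point is 1 region, those called are red, and the black lines are medians, at 0.46, −0.50, 1.41 and 0.92.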

How the data were processed

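TIF-Seq2 libraries of K562 cells were analysed, 2 from imatinib and 2 from DMSO, grouped by their sample labels. The deposited values are raw counts of read pairs per pair of end positions, without normalization. To make them, the authors trimmed reads with cutadapt 1.16, aligned both ends to hg38 with STAR 2.5.3a and collapsed pairs that shared a UMI. The deposited long-read models, aligned by the authors with minimap2 2.16, are coordinates without counts. The 3T-fill libraries were not used here.

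Pairs whose ends lay between 300 bp and 2 Mb apart, with under 7 A in the 10 nt after the 3′ end, were counted to a published region, when both ends lay within it (50 bp slack), and otherwise to the v44 gene with the closest transcript ends. Features with at least 20 pairs were tested with edgeR 4.0.16 (R 4.3.3, robust quasi-likelihood, TMM) and DESeq2 1.42.0 as an alternative, and sums by exact permutation (scipy 1.17.1). Starts were aligned with Biopython 1.88. On simulated counts edgeR called 98%, 70%, 86% and 100% of features changed by −3, −2, 2 and 3 on the log2 scale. The changed features were drawn from all 11705, mostly genes, with 1 common dispersion of 0.0593 for all. These shares therefore do not give the detection for regions with few pairs. In the deepest library 1 pair is 0.217 CPM and in the shallowest 0.506 CPM, and intervals and floors cover counting error only. Sequences are from the GRCh38 reference, and some sequences and genes are not reported here.

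The members, lists and tests were chosen with earlier results of these data known. Regions were named by rule: the 10 with the most pairs, the 10 largest changes in each direction among called ones whose conditions did not overlap in CPM, those with long-read models, and the 5 with the most pairs within 1 kb of a protein-coding gene start on the other strand. Repeats are not marked in the reference used, so no repeat annotation was made. Alternatives covered tool, scaling, filters, slack, replicate block and left-out libraries.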

Additional observations from a re-analysis of the deposited data

How the results depend on the processing

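With no slack at the region borders the regions held 20171 read pairs in place of 27414, and without the filter on A 31481. The median share of pairs at the most used start was 65.9% when ends were joined within 5 bp and 93.1% within 20 bp, and at the most used end 88.8% within 5 bp. Leaving out 1 library each moved the number of called regions from 70 to between 41 and 91, those higher from 61 to between 33 and 76, and those lower from 9 to between 7 and 15. The count was lowest without imatinib replicate 1, where fewer regions were also deep enough to test (166 in place of 215). Over the other tools, scalings and filters run, from 51 to 85 regions were called, within 1.5 times of 70. Without a filter on low counts 13 regions were lower in place of 9. With a replicate block 60 regions were called. Samples of the same number deviated in opposite directions (correlation −0.22), and with crossed pairing, added after seeing the data, 85 were called, so the numbers were not taken as pairs. The ratio of the summed level stayed above 1 under each alternative run, from 1.29 to 1.56 for all regions, and it came down to 1.05 for intergenic regions without imatinib replicate 1. Of the 26 named regions that were called, 21 were called under each alternative that could test them, and the exceptions were TIF_NOVEL_89, TIF_NOVEL_284, TIF_NOVEL_263, TIF_NOVEL_338 and chr19_G01. The call of TIF_NOVEL_284 was also lost with the replicate block (log2 fold change −3.56, edgeR adjusted p = 0.0897). Leaving out 1 library moved the fold by over 1.5 times in 14 of the 26, in 7 without DMSO replicate 1, in 9 without DMSO replicate 2, in 6 without imatinib replicate 1 and in 0 without imatinib replicate 2, and turned no sign among them. TIF_NOVEL_333, not called with all libraries (log2 fold change −1.41), was called without DMSO replicate 2 (−1.67) and without imatinib replicate 1 (−1.91). The causes were not tested. The median region had 8 to 23 pairs per library, and 28 of the 243 had too few to be tested.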
